A study of Mus musculus with 16 samples.

Results

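The 10 genes described here encode the 4 mouse Notch receptors (*Notch1*, *Notch2*, *Notch3* and *Notch4*), 4 of their ligands (*Dll1*, *Dll4*, *Jag1* and *Jag2*) and 2 genes that Notch signaling switches on (*Hey1* and *Hey2*). They were chosen by symbol, and all 10 were found among the 55492 genes of the table. They were measured by RNA sequencing in 16 libraries of left ventricle from male C57BL/6 mice aged 8 to 12 weeks. PKM2fl/fl mice carry floxed alleles of *Pkm*, the gene of pyruvate kinase M1 and M2, and served as controls. In PKM2-/- mice, *Pkm2*-specific exon 10 had been removed in every cell of the body by CMV-Cre, a recombinase expressed in all tissues, and Cre was then bred out. Each genotype had 2 libraries from mice with no surgery (baseline), 3 libraries taken 3 days after a sham operation in which the left anterior descending artery (LAD) was not tied, and 3 libraries taken 3 days after permanent LAD ligation, which causes myocardial infarction (MI). The tissue was pulverized ventricle with all cell types mixed, and whether infarcted and spared muscle were separated is not given in the sources used here.

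Notch receptors sit at the cell surface and bind Delta-like and Jagged ligands on a neighboring cell. Binding lets an ADAM protease and then gamma-secretase cut the receptor, and its freed intracellular part enters the nucleus, joins the DNA-binding protein RBPJ and a Mastermind coactivator, and turns on genes such as *Hey1* and *Hey2*, which encode transcriptional repressors. In the heart, the pathway is known for its part in forming valves, trabeculae and coronary vessels. DLL4 is known as a ligand of arterial and sprouting endothelium, and NOTCH3 as a receptor of pericytes and smooth muscle cells.

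Values are normalized counts, the reads on a gene divided by the library's size factor. Libraries held 20623769 to 71855101 reads, and a Notch gene held between 60 reads (*Hey2*) and 6693 reads (*Notch2*) in any library. Whole-gene *Pkm* had 7779 to 9602 normalized counts in PKM2fl/fl baseline and sham libraries and 11710 to 14242 in the matching PKM2-/- libraries. With counts per gene, the loss of exon 10 could not be checked. *Myh6*, the main myosin of mouse ventricular cardiomyocytes, was between 307764 and 451806 in baseline and sham libraries. It was between 46178 and 137875 after MI, lowest in PKM2fl/fl replicate 3, while the other 2 PKM2fl/fl MI libraries held 134794 and 137875. The PKM2-/- MI libraries held 66974.5, 50252 and 49315, nearer to PKM2fl/fl replicate 3 than to those 2. The atrial light chain *Myl7* reached 378 to 405 in 3 sham libraries (PKM2fl/fl replicates 1 and 3 and PKM2-/- replicate 1) and at most 246 in the other libraries. Loci that collect ribosomal RNA reads took 15.8% to 46.0% of reads. At baseline their share was 17.2% to 22.1% in PKM2fl/fl and 39.6% to 43.8% in PKM2-/- libraries, so there the genotypes also differed in this share without overlap. It was 15.8% to 27.8% in PKM2fl/fl sham and 19.8% to 44.5% in PKM2fl/fl MI libraries, against 28.5% to 46.0% and 15.98% to 34.2% in PKM2-/- libraries. After sham surgery the genotypes thus did not overlap in this share either, while after MI they did.

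At 3 days after LAD ligation, the Notch genes had moved in both directions. *Jag1* and *Notch2* were 1.77-fold to 1.85-fold higher than after sham surgery in both genotypes, *Dll4* rose by less, and *Jag2* and *Hey2* fell in both. Groups were compared with limma on log2(normalized count + 1) across all 16 libraries, and a gene was called at a Benjamini-Hochberg adjusted p under 0.05 over 20576 genes, those that averaged 10 or more. In PKM2fl/fl hearts, 6 of the 10 genes were called, 4 higher and 2 lower, where 50.1% of all tested genes were called (24.8% higher, 25.3% lower). In PKM2-/- hearts, 8 of the 10 were called, 4 higher and 4 lower, where 56.8% of all tested genes were called (28.7% higher, 28.1% lower). Infarct and sham groups did not overlap for 7 of the 10 genes in PKM2fl/fl and 8 in PKM2-/- hearts, beside 59% and 62.3% of all genes. With 10 genes, these counts are near the backgrounds. With the level of a ribosomal RNA locus as a covariate, the PKM2fl/fl count was 2, *Jag1* and *Notch2*. Calls over all genes there went from 10299 to 6014. That level was 32095 to 489424 normalized counts in PKM2fl/fl sham and 428195 to 1.14e+07 in PKM2fl/fl MI libraries. It thus largely followed MI there, so the lost calls cannot be assigned to ribosomal RNA rather than MI. The PKM2-/- count stayed at 8, with 11621 of all genes called beside 11679. Without the 3 sham libraries highest in *Myl7*, which leaves 1 PKM2fl/fl sham library, the PKM2-/- count was 7 (without *Notch4*), beside 10314. Scaled to total reads, the count was 1 in PKM2fl/fl (*Jag2*) and 4 in PKM2-/- hearts (*Notch2*, *Notch4*, *Dll4* and *Jag1*). Calls over all genes were then 6022 and 9184. None of the 10 reached a 2-fold change, while 23.5% of tested genes in PKM2fl/fl and 28.8% in PKM2-/- hearts were called with at least that size. The 10 genes had a median log2 fold change of 0.18 in PKM2fl/fl and -0.15 in PKM2-/- hearts, beside -0.00254 and 0.01 over all genes. In ventricle with all cells mixed, fewer cells of a type and less RNA per cell cannot be told apart.

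**Figure D1:**
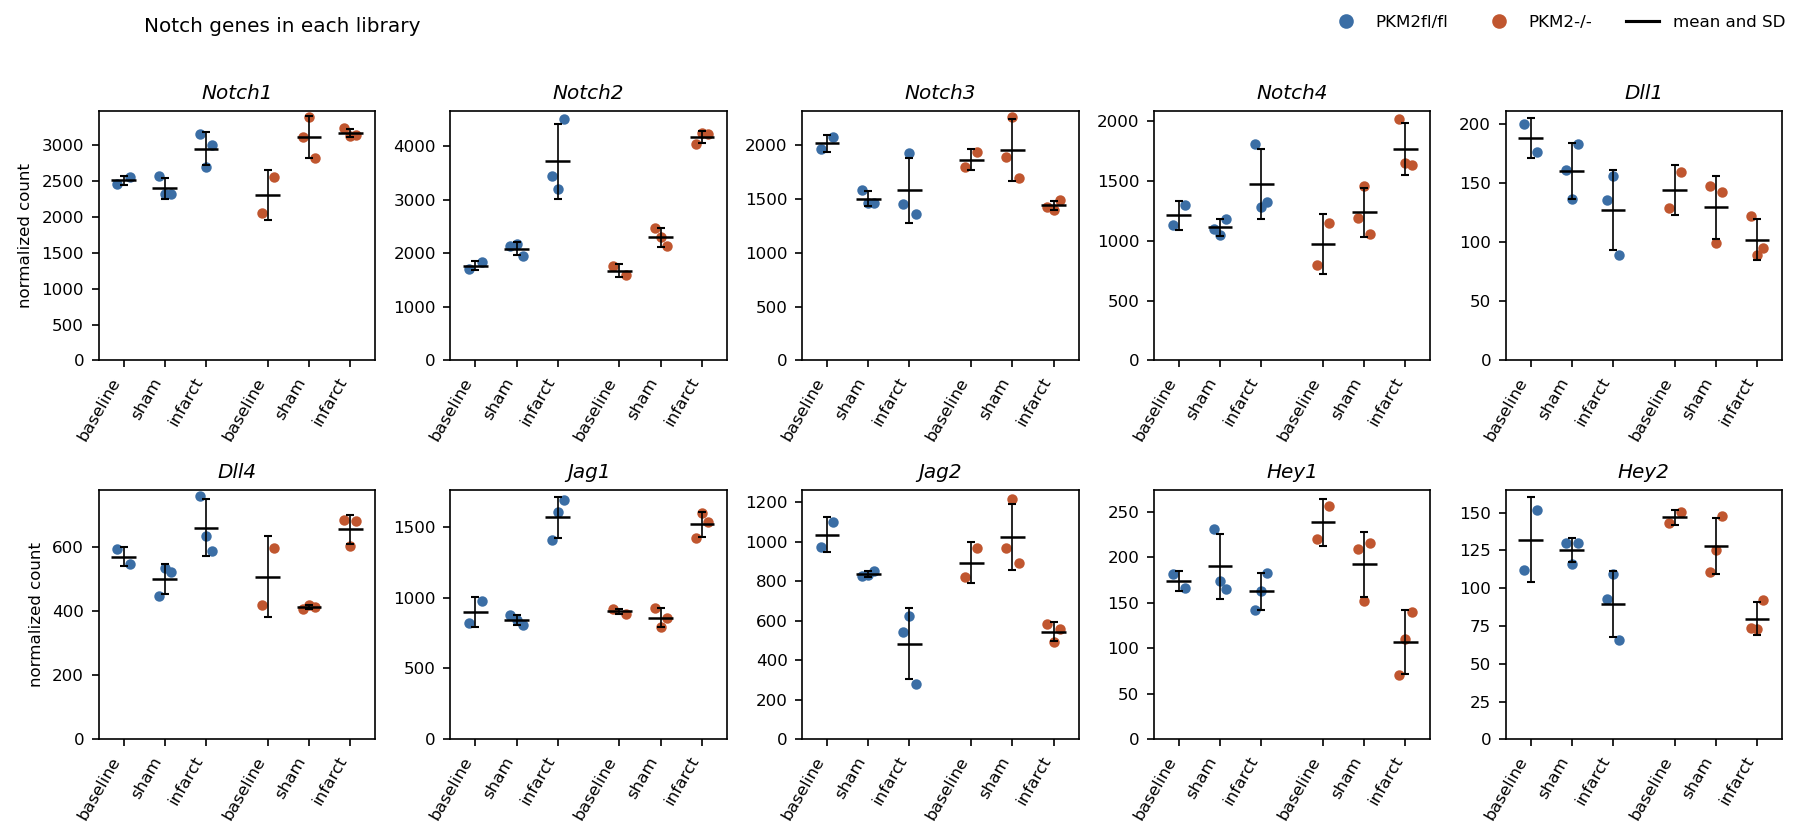
Normalized counts of the 10 Notch genes in each library (points), with the mean and SD of each group (black), for baseline (n = 2), sham (n = 3) and infarct (n = 3) libraries of both genotypes. The infarct points of Jag1 and Notch2 lie above all sham and baseline points in both genotypes, and those of Jag2 lie below them.

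Among the ligands, *Jag1* (chr2:137081451-137116520, reverse strand, GRCm38) changed most evenly. It had 878, 841 and 809 normalized counts in the PKM2fl/fl sham libraries and 1404, 1603 and 1688 after MI (843 ± 34.2 against 1565 ± 146, SD, n = 3). The PKM2-/- hearts had 926, 790.1 and 857 after sham surgery and 1420.3, 1595 and 1534 after MI. Every MI library was above every sham library of its genotype, with no overlap. The log2 fold change was 0.89 in PKM2fl/fl (SE 0.10, limma adjusted p = 4.8e-06) and 0.82 in PKM2-/- hearts (SE 0.10, limma adjusted p = 5.6e-06).

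*Jag2* (chr12:112907803-112929812, reverse strand), which encodes the second Jagged ligand, went the other way. It had 824, 834 and 854 normalized counts in PKM2fl/fl sham libraries and 544, 625 and 282 after MI. The values in PKM2-/- hearts were 966, 1215 and 891 after sham surgery and 586, 493 and 557 after MI. The groups did not overlap in either genotype. The value of 282 came from PKM2fl/fl MI replicate 3, the library lowest in *Myh6* at 46178, where the PKM2-/- MI libraries held 49315 to 66974.5. *Jag2* was 45.3% lower in PKM2fl/fl hearts (log2 fold change -0.87, SE 0.22, limma adjusted p = 0.00343) and 46.4% lower in PKM2-/- hearts (log2 fold change -0.90, SE 0.22, limma adjusted p = 0.00229). Without PKM2fl/fl MI replicate 3 the fold change in that genotype was -0.52 on the log2 scale and remained called.

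The ratio of *Jag1* to *Jag2* counts sets the rise of the first against the fall of the other. It was chosen after the values were seen and was not tested. It lay between 0.948 and 1.06 in PKM2fl/fl sham libraries and between 2.57 and 5.99 after MI. In PKM2-/- hearts it lay between 0.651 and 0.961 after sham surgery and between 2.42 and 3.23 after MI. At baseline it was 0.847 to 0.885 in PKM2fl/fl and 0.917 to 1.11 in PKM2-/- libraries, so in both genotypes the MI libraries stood apart from all others.

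*Dll4* (chr2:119325784-119335666, forward strand) had 448, 534 and 523 normalized counts in PKM2fl/fl sham libraries and 759, 634 and 588 after MI. PKM2-/- hearts had 408, 421 and 413 after sham surgery and 683, 603 and 681 after MI. At baseline it had 593 and 549 in PKM2fl/fl hearts, which overlapped the MI libraries, and 418 and 597 in PKM2-/- hearts. Sham and MI groups did not overlap in either genotype, and the PKM2-/- sham libraries lay close together (414 ± 6.13, SD, n = 3). The log2 fold change was 0.39 in PKM2fl/fl hearts (SE 0.13, limma adjusted p = 0.0219) and 0.66 in PKM2-/- hearts (SE 0.13, limma adjusted p = 0.000563). The PKM2fl/fl call was lost without sham replicate 1 (log2 fold change 0.31) or MI replicate 1 (0.29). The ratio of *Jag1* to *Dll4* overlapped between the PKM2fl/fl sham (1.55 to 1.96) and MI libraries (1.85 to 2.87), and likewise in PKM2-/- hearts (1.88 to 2.27 and 2.08 to 2.64).

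*Dll1* (chr17:15367354-15376932, reverse strand), a Delta-like ligand, was not called. It had 162, 137 and 183 normalized counts in PKM2fl/fl sham libraries and 136, 156 and 89.6 after MI, and 148, 99.3 and 142 against 122, 89.5 and 95.2 in PKM2-/- hearts. The groups overlapped in both genotypes. The limma 95% interval of the log2 fold change ran from -0.83 to 0.11 in PKM2fl/fl (adjusted p = 0.194) and from -0.80 to 0.14 in PKM2-/- hearts (adjusted p = 0.218), so a fall of the size seen for *Hey2* was inside both.

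Of the receptors, *Notch2* (chr3:98013538-98150367, forward strand) rose in both genotypes. It had 2134, 2175 and 1948 normalized counts in PKM2fl/fl sham libraries and 3447, 3201 and 4511 after MI. The PKM2-/- libraries held 2482, 2302 and 2131 after sham surgery and 4041, 4251 and 4231 after MI. The highest sham library of either genotype lay below the lowest MI library of both. The rise was 1.77-fold in PKM2fl/fl (log2 fold change 0.82, SE 0.11, limma adjusted p = 3.3e-05) and 1.81-fold in PKM2-/- hearts (log2 fold change 0.86, SE 0.11, limma adjusted p = 1.4e-05).

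*Notch1* (chr2:26457902-26503822, reverse strand), a receptor known from endothelium and T cells, rose in PKM2fl/fl hearts from 2569, 2319.9 and 2318 normalized counts after sham surgery to 3155, 2700.5 and 3002 after MI. Its log2 fold change was 0.30 there (SE 0.10, limma adjusted p = 0.0228). In PKM2-/- hearts it had 3116, 3401 and 2819 after sham surgery and 3238, 3127 and 3144 after MI, with overlapping groups and a log2 fold change of 0.03 (limma 95% interval -0.18 to 0.24, adjusted p = 0.817). Of the PKM2-/- sham libraries, replicates 1 and 3 lay within the range of the PKM2fl/fl MI libraries and replicate 2 above it. The PKM2fl/fl call was lost without sham replicate 2 (0.27 on the log2 scale), sham replicate 3 (0.27) or MI replicate 1 (0.25).

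*Notch3* (chr17:32120820-32166896, reverse strand) had 1579.8, 1457 and 1464 normalized counts in PKM2fl/fl sham libraries and 1453, 1920.3 and 1358 after MI, and these groups overlapped. In PKM2-/- hearts it had 1892, 2263 and 1694 after sham surgery and 1428, 1399.8 and 1486 after MI, all 3 MI libraries below the sham libraries. The log2 fold change was 0.06 in PKM2fl/fl hearts (limma 95% interval -0.21 to 0.32, adjusted p = 0.73). It was -0.43 in PKM2-/- hearts (SE 0.12, limma adjusted p = 0.00814), a fall of 25.7% that became 0.0835 on the log2 scale when libraries were scaled to total reads, a scaling that moved the median of all genes to 0.52 in that comparison.

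*Notch4* (chr17:34564286-34588543, forward strand), a receptor known from endothelium, had 1099.8, 1047 and 1182 normalized counts in PKM2fl/fl sham libraries and 1806, 1279.5 and 1322 after MI. The PKM2-/- libraries held 1188, 1459 and 1056 after sham surgery and 2014, 1645 and 1630.2 after MI. Neither genotype's groups overlapped. The log2 fold change was 0.39 in PKM2fl/fl hearts (SE 0.16, limma adjusted p = 0.0586, not called) and 0.52 in PKM2-/- hearts (SE 0.16, limma adjusted p = 0.0126). The PKM2fl/fl comparison was called without MI replicate 2 (0.48) or MI replicate 3 (0.46) and was at 0.23 without MI replicate 1, and the PKM2-/- call was lost without sham replicate 3 (0.41) or MI replicate 1 (0.42).

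Neither target gene was called higher after MI in either genotype. *Hey2* (chr10:30832359-30842783, reverse strand) had 129.8, 116 and 129.9 normalized counts in PKM2fl/fl sham libraries and 92.7, 109 and 65.8 after MI. The values in PKM2-/- hearts were 111, 125 and 148 after sham surgery and 73.8, 73.0 and 92.3 after MI. MI libraries were below sham libraries without overlap in both genotypes. It was 29.9% lower in PKM2fl/fl (log2 fold change -0.51, SE 0.20, limma adjusted p = 0.044) and 37.4% lower in PKM2-/- hearts (log2 fold change -0.68, SE 0.20, limma adjusted p = 0.00921). The PKM2fl/fl call stood at the threshold: it was lost without sham replicate 1 (-0.49), 2 (-0.57) or 3 (-0.48), without MI replicate 1 (-0.55) or 3 (-0.31), and with edgeR (-0.51) or DESeq2 (-0.50).

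*Hey1* (chr3:8663359-8667038) had 231, 173 and 165 normalized counts in PKM2fl/fl sham libraries and 142, 163 and 183 after MI, with overlapping groups (log2 fold change -0.21, limma 95% interval -0.69 to 0.27, adjusted p = 0.454). In PKM2-/- hearts it had 209, 151 and 216 after sham surgery and 70.5, 109.9 and 139.9 after MI, without overlap. There it was 45.6% lower (log2 fold change -0.88, SE 0.22, limma adjusted p = 0.00366). The ratio of *Hey2* to *Hey1* was 0.562 to 0.786 in PKM2fl/fl sham and 0.36 to 0.671 in PKM2fl/fl MI libraries, and 0.531 to 0.828 and 0.66 to 1.05 in PKM2-/- libraries, so it overlapped between treatments.

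**Figure D2:**
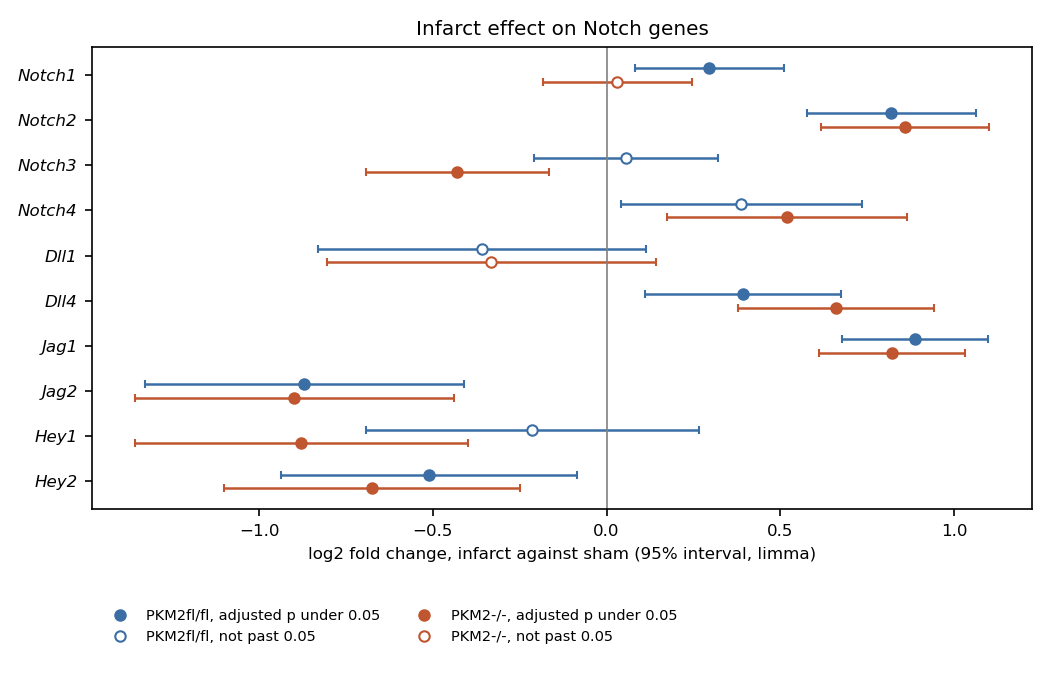
Log2 fold change between infarct and sham libraries for each Notch gene (points) with its limma 95% interval (bars), in PKM2fl/fl (blue) and PKM2-/- hearts (orange); filled points had an adjusted p under 0.05. Notch2, Jag1 and Dll4 lie right of 0 and Jag2 and Hey2 left of 0 in both genotypes, while Notch1 was called only in PKM2fl/fl and Notch3, Notch4 and Hey1 only in PKM2-/- hearts, differences that were not themselves called.

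Promoter sequences of 4 genes are shown because they hold or lack the sequence to which RBPJ binds and because the genes moved in different directions: *Hey2* fell, *Lfng*, a glycosyltransferase that modifies Notch receptors, rose, and *Jag1* and *Jag2* parted. Each window, from RefSeq on GRCm38.p6, runs from 250 bases before to 50 bases after a gene start and is given 5′ to 3′ on the gene's strand. GTGGGAA, the core of RBPJ sites, was searched on both strands, and matches are in capitals (TTCCCAC is the same motif on the opposite strand).
*Hey2* (chr10:30842734-30843033, reverse strand): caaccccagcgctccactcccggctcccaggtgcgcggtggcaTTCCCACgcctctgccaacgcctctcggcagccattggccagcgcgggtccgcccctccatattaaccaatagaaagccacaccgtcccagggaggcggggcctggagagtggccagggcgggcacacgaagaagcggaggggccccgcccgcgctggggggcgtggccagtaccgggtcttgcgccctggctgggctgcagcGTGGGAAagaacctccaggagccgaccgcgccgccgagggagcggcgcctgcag
*Lfng* (chr5:140607091-140607390, forward strand): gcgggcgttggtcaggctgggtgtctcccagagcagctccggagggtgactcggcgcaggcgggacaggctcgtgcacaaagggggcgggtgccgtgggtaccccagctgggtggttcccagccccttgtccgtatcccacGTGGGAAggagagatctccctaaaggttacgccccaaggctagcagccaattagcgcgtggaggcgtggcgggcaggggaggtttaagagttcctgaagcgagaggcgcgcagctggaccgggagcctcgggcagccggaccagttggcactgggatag
*Jag1* (chr2:137116471-137116770, reverse strand): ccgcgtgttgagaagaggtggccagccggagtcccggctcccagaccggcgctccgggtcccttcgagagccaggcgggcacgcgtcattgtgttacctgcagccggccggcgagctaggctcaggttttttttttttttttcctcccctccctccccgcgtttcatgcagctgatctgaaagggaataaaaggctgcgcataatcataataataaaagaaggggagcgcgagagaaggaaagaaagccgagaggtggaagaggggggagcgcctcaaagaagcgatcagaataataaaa
*Jag2* (chr12:112929446-112929745, reverse strand): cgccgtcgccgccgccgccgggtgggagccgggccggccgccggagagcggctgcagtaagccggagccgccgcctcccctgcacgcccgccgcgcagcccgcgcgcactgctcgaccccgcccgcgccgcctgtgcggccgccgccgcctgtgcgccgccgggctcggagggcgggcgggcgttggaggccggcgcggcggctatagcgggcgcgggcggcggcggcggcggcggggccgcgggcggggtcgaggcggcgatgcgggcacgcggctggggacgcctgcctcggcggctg
The *Hey2* window held 2 matches, beginning 4 and 207 bases before the start. The *Lfng* window held 1, beginning 109 bases before the start, and the *Jag1* and *Jag2* windows held 0. Of all 32851 promoter windows, 2097 (6.38%) held the motif. Among the Notch genes, 9 had a window, and 1 of their 10 windows held it. Of 47 windows of other pathway genes, 6 held it. Base composition differed between the Jagged genes, with 55.7% G and C in the *Jag1* window and 86% in the *Jag2* window. A match describes these letters only, and binding was not measured.

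The other genes of the pathway also moved in both directions. Of 45 listed genes, 41 were tested. In PKM2fl/fl hearts 25 were called, 19 higher and 6 lower, and in PKM2-/- hearts 27, 18 higher and 9 lower. Of all genes, 50.1% were called in PKM2fl/fl hearts (24.8% higher, 25.3% lower) and 56.8% in PKM2-/- hearts (28.7% higher, 28.1% lower). The same shares are the background of the class counts that follow, and each class is small. Their median log2 fold changes were 0.30 and 0.22.

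Among 14 genes of receptor cutting and glycosylation, 8 rose and 2 fell in PKM2fl/fl hearts, and 9 rose and 2 fell in PKM2-/- hearts. *Lfng* was 1.14 higher on the log2 scale in PKM2fl/fl (SE 0.19) and 1.50 in PKM2-/- hearts (SE 0.19). *Adam10*, whose product makes the first cut in a ligand-bound receptor, rose by 0.92 and 1.09. *Adam17*, a related protease, rose by 0.49 and 0.39, and *Poglut1*, an enzyme that adds glucose to Notch repeats, by 0.58 and 0.73. All had limma adjusted p values between 9.2e-06 and 0.0016.

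Among 13 genes of ligand and receptor turnover, 4 rose and 2 fell in PKM2fl/fl hearts, and 4 rose and 5 fell in PKM2-/- hearts. *Numbl*, a relative of the Notch antagonist Numb, rose by 0.99 and 1.09 on the log2 scale, and *Dtx4*, a Deltex ubiquitin ligase, by 1.04 and 1.33. The ubiquitin ligase *Itch* rose by 0.35 and 0.30. *Mib2*, a ligase that acts on Notch ligands, fell by 0.56 and 0.87.

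Of 8 genes of the nuclear complex, 5 rose and 1 fell in PKM2fl/fl hearts, and 4 rose and 1 fell in PKM2-/- hearts. *Maml3*, a Mastermind coactivator, rose by 0.82 and 1.17 on the log2 scale. *Rbpj* rose by 0.37 and 0.55. *Snw1* fell by 0.39 and 0.36, and in PKM2-/- hearts was at 0.15 when libraries were scaled to total reads.

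Outside the Hey1 and Hey2 pair, 5 genes listed as other targets were tested and did not move together. Calls were 2 higher and 1 lower in PKM2fl/fl hearts, and 1 higher and 1 lower in PKM2-/- hearts. Whether Notch signaling drives these 5 genes in this tissue was not tested. *Nrarp*, which encodes a feedback inhibitor of the pathway, rose by 0.75 on the log2 scale in PKM2fl/fl (SE 0.20, limma adjusted p = 0.00678) and 0.57 in PKM2-/- hearts (SE 0.20, limma adjusted p = 0.0264). The PKM2-/- call of *Nrarp* was lost without sham replicate 1 (0.57) or 3 (0.45), or without MI replicate 1 (0.55) or 3 (0.53). *Hes6* fell by 1.05 and 0.86. *Heyl*, the third Hey gene, rose by 0.75 in PKM2fl/fl hearts (SE 0.14, limma adjusted p = 0.000326), from 355 to 520.1 normalized counts after sham surgery to 677 to 732 after MI. Its PKM2fl/fl baseline libraries, at 665 and 736, were close to the range of the MI libraries. With both genotypes together, *Heyl* fell by 0.38 between baseline and sham surgery (SE 0.11, limma adjusted p = 0.0486). The lower sham values were those of PKM2fl/fl hearts, as PKM2-/- hearts had 589 and 652 at baseline and 587 to 678 after sham surgery. Between MI and sham surgery, the log2 fold change of *Heyl* in PKM2-/- hearts was -0.10 (SE 0.14, limma adjusted p = 0.558). The difference in this change between the genotypes was -0.85 (SE 0.19, limma adjusted p = 0.302).

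**Figure D3:**
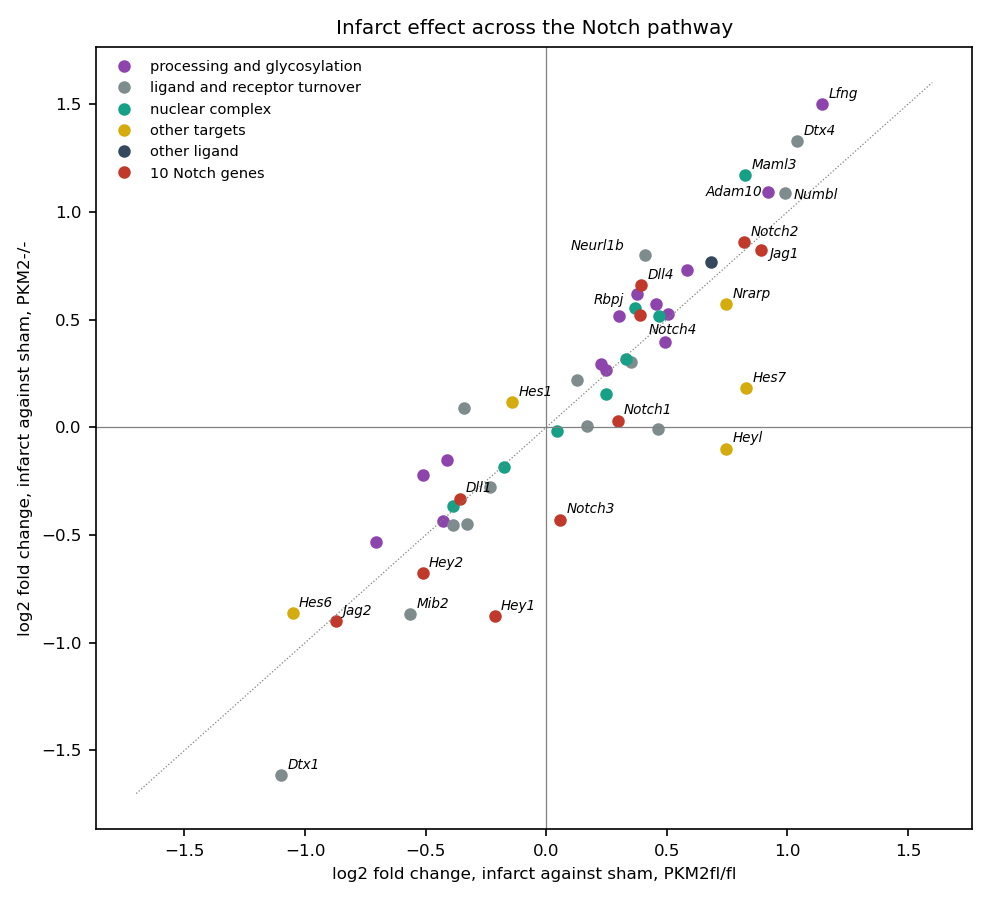
Log2 fold change between infarct and sham libraries in PKM2fl/fl (x axis) and PKM2-/- hearts (y axis) for the 10 Notch genes (red) and the 41 tested pathway genes by class, with a dotted line where both are equal. Lfng, Dtx4, Numbl and Adam10 lie at the upper right, Notch2 and Jag1 below them, and Jag2, Hey2 and Hes6 at the lower left.

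Markers of the cells that could carry Notch transcripts moved at the same time. The summed normalized counts of 7 endothelial markers were 18392 to 21599.7 in PKM2fl/fl sham and 21249.7 to 23594 in PKM2fl/fl MI libraries, and 20378 to 21245 and 22195 to 23996 in PKM2-/- libraries. Single markers of that list went both ways, with log2 fold changes of 0.76 and 0.75 for *Cdh5* and of -0.28 and -0.30 for *Tek*, all 4 called by limma. Of 7 endothelial markers, 2 rose and 1 fell in PKM2fl/fl hearts, and 2 rose and 2 fell in PKM2-/- hearts. Beside these and the marker counts below, 24.8% of all genes rose and 25.3% fell in PKM2fl/fl hearts. In PKM2-/- hearts these shares were 28.7% and 28.1%.

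The 4 arterial markers summed to 2042 to 2331 after sham surgery and 2308 to 2863 after MI in PKM2fl/fl hearts, and to 1931 to 2082 and 2385 to 2629.9 in PKM2-/- hearts. The 8 mural markers, of pericytes and smooth muscle, summed to 14115 to 15978 and 14429.8 to 17479 in PKM2fl/fl hearts, and to 15046 to 19603 and 12083 to 13768 in PKM2-/- hearts. *Rgs5*, a pericyte marker that held the largest part of the mural sum in sham libraries, had log2 fold changes of -0.997 and -1.41. The 8 mural markers went both ways: 5 rose and 2 fell in PKM2fl/fl hearts, and 3 rose (*Acta2*, *Tagln* and *Pdgfrb*) and 3 fell (*Myh11*, *Rgs5* and *Kcnj8*) in PKM2-/- hearts, with medians of 0.72 and 0.12 on the log2 scale. These sums were not tested. Macrophage markers summed to 5054 to 9168 after sham surgery and 17685 to 27381 after MI in PKM2fl/fl hearts, and to 6296 to 8427 and 22027 to 26726 in PKM2-/- hearts, and all 5 rose in both genotypes.

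The 5 fibroblast markers summed to 31221 to 40262 and 64172.5 to 75625 in PKM2fl/fl hearts, and to 31100.4 to 43930.4 and 54699.6 to 79706 in PKM2-/- hearts. Of these 5, *Col1a1* and *Pdgfra* rose and *Dcn* and *Gsn* fell in both genotypes. *Col1a1*, a collagen gene, had 4030.6 to 9297 normalized counts in PKM2fl/fl sham and 51164 to 57087 in PKM2fl/fl MI libraries, and held most of the MI sums. The 7 cardiomyocyte markers summed to 852460 to 976136 after sham surgery and 169408 to 390021 after MI in PKM2fl/fl hearts, and to 759873 to 926580 and 172879 to 248558 in PKM2-/- hearts. Of these 7, 6 fell in PKM2fl/fl and 7 in PKM2-/- hearts. Of all listed markers of these 6 cell types, none was at 0 in any library. The part of these shifts in the changes of the Notch genes was not tested.

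**Figure D4:**
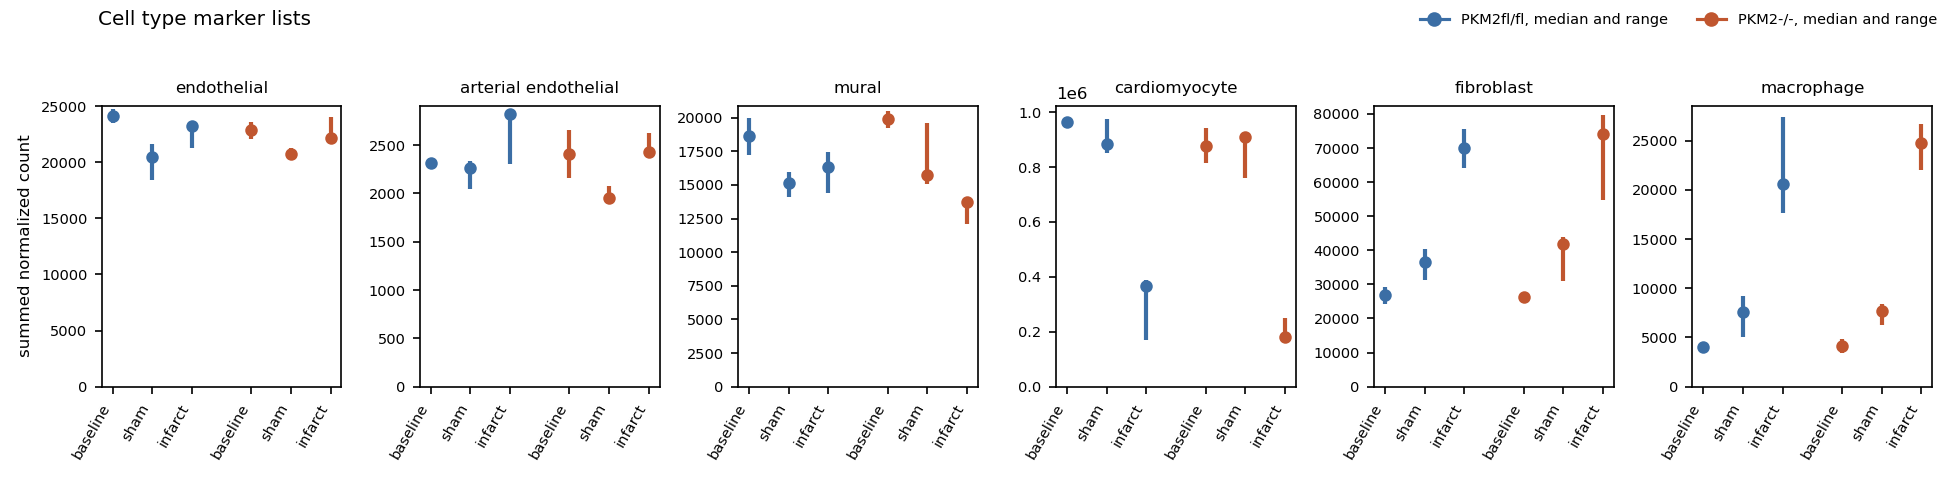
Summed normalized counts of 6 cell type marker lists, as the median (point) and range (line) over the libraries of each group, with axes that start at 0. Cardiomyocyte sums lie lower and fibroblast and macrophage sums higher after infarction than after sham surgery in both genotypes (2 of the 5 fibroblast markers were called lower), while endothelial sums lie between 18392 and 24733.

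Per transcript length, the means of 7 of the 10 genes lay above those of the other 3 in every group. Levels were set as normalized counts per kilobase of the canonical transcript. The gap was narrow in PKM2fl/fl MI libraries, where *Jag2* went down to 54.5 and *Hey1* up to 47.1. In PKM2fl/fl hearts at baseline, *Notch1* was highest at 265 ± 6.83 (SD, n = 2), followed by *Notch3* (249), *Jag2* (201), *Notch4* (183), *Notch2* (168), *Jag1* (156) and *Dll4* (149). *Hey2* (51.2), *Dll1* (46.3) and *Hey1* (44.8) followed. Neighbors in this order overlapped between libraries from *Jag2* through *Dll4* and among the last 3, whereas *Notch1*, *Notch3* and *Jag2* were apart, as were *Dll4* and *Hey2*.

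After MI the order of these levels changed. *Notch2* was highest at 352 ± 65.9 normalized counts per kilobase in PKM2fl/fl and 396 ± 11.0 in PKM2-/- hearts (SD, n = 3), ahead of *Notch1* at 311 and 334. *Jag1* was at 272 and 264, and *Jag2* at 93.6 and 106. In PKM2fl/fl MI libraries, each gene from *Notch2* to *Dll4* overlapped with its neighbor in the order, and the drops from *Dll4* to *Jag2* and from *Jag2* to *Hey1* did not overlap. In PKM2-/- MI libraries, *Notch2* was above *Notch1*, and *Notch1* above *Notch4* (267), without overlap. The order depends on the length used: per length of all merged exons, *Notch3* was first at baseline in both genotypes, and *Jag1* was second to *Notch2* after MI in both.

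**Figure D5:**
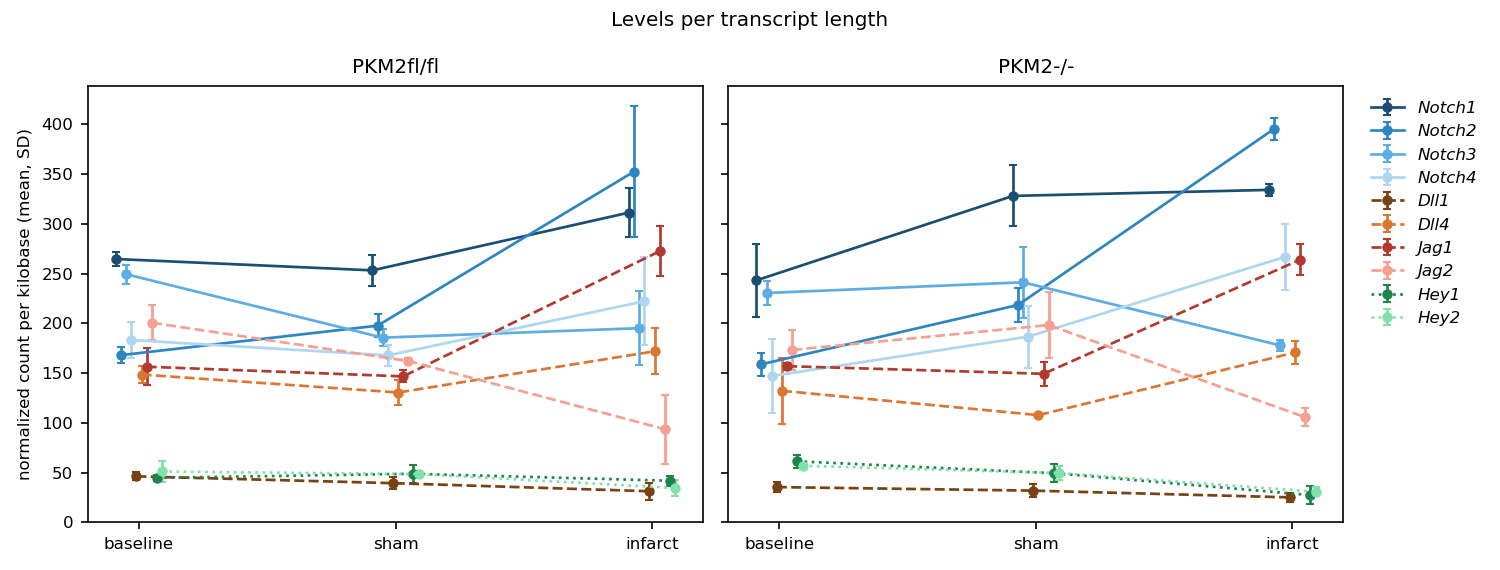
Mean normalized count per kilobase of canonical transcript, with SD, for each Notch gene at baseline (n = 2), after sham surgery (n = 3) and after infarction (n = 3), in PKM2fl/fl (left) and PKM2-/- hearts (right). Notch2 and Jag1 lie higher and Jag2 lower after infarction than after sham surgery, and Hey1, Hey2 and Dll1 lie lowest in all 6 groups.

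Between genotypes, no Notch gene was called with limma at baseline, after sham surgery or after MI, where 0.00972%, 0.00972% and 0.967% of all genes were called. At an unadjusted p under 0.05 there were 0, 2 and 1 of the 10, beside 3.64%, 9.95% and 17% of all genes. edgeR called 0 of the 10 in each comparison, and DESeq2 called 0, 1 and 0.

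At baseline, *Notch4* had the smallest p. It had 1126 and 1296 normalized counts in PKM2fl/fl and 797 and 1147 in PKM2-/- hearts, which overlapped (log2 fold change -0.34, SE 0.20, limma adjusted p = 1). The value was -0.075 without PKM2-/- replicate 1, -0.60 without PKM2-/- replicate 2 and -0.93 with libraries scaled to total reads, where the median of all genes was -0.59. Groups did not overlap for *Hey1*, higher in PKM2-/- hearts, nor for *Jag2*, *Dll1* and *Notch3*, lower there. These 4 of 10 stood beside 34.9% of all genes.

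After sham surgery, *Notch1* had the smallest p. PKM2fl/fl libraries had 2318 to 2569 normalized counts and PKM2-/- libraries 2819 to 3401, without overlap (log2 fold change 0.37, SE 0.10, limma adjusted p = 0.191). DESeq2 called it (0.37, adjusted p = 0.0387), and scaled to total reads it was at 0.05. The share of ribosomal RNA reads also differed between these groups without overlap, and its part in this difference was not tested. *Notch3* and *Jag2* were also higher and *Dll4* lower in PKM2-/- libraries without overlap, and these 4 of 10 stood beside 16.5% of all genes.

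After MI, *Hey1* had the smallest p. It had 142, 163 and 183 normalized counts in PKM2fl/fl and 70.5, 109.9 and 139.9 in PKM2-/- hearts. The groups were apart by 142 against 139.9 at their nearest (log2 fold change -0.65, SE 0.22, limma adjusted p = 0.158). It was the only 1 of the 10 whose groups did not overlap, where 18.9% of all genes did not. Without PKM2-/- MI replicate 1, its log2 fold change was -0.38. Without PKM2fl/fl MI replicate 3, 1 Notch gene, *Notch2*, was called higher in PKM2-/- hearts, and the number of all genes called went from 199 to 2279.

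The response to MI did not differ detectably between genotypes for any Notch gene. With the interaction term in limma, 0 of the 10 and 0 of all genes (0%) were called, and 1 of the 10 and 8.28% of all genes had an unadjusted p under 0.05. edgeR called 0 of all genes, and DESeq2 60, none of them a Notch gene. *Notch3* had the smallest p, with a difference of -0.49 in log2 fold change (95% interval -0.86 to -0.11, limma adjusted p = 0.522). Scaled to total reads the difference was 0.20, with the median of all genes at 0.68. For *Notch2* and *Jag1*, the intervals of the difference were -0.30 to 0.38 and -0.36 to 0.23, and for *Jag2* -0.68 to 0.62.

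Between sham and baseline hearts, 1 Notch gene was called. With both genotypes together, *Notch2* had 1713.5, 1833, 1765 and 1589 normalized counts at baseline and 1948 to 2482 after sham surgery, without overlap, and was 1.27-fold higher (log2 fold change 0.35, SE 0.09, limma adjusted p = 0.0315). Of all genes, 6.54% were called. The call was lost in turn without 8 of the 10 libraries, at log2 fold changes between 0.31 and 0.38, and it held only without PKM2fl/fl sham replicate 3 or PKM2-/- sham replicate 3. edgeR did not call it (0.33). *Myl7* had 11.0 to 139 normalized counts at baseline and 69.0 to 405 after sham surgery (limma adjusted p = 0.0696), and the other 3 atrial markers, *Myl4*, *Sln* and *Nppa*, were called higher by limma. All 5 macrophage, all 4 neutrophil and both proliferation markers were called higher too, and the part of these shifts in the *Notch2* call was not tested. Without the 3 sham libraries highest in *Myl7*, *Notch2* was at 0.35 on the log2 scale and not called.

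Some genes had profiles across the 16 libraries close to those of the Notch genes, by Pearson's r on log2(normalized count + 1) among 13469 genes with a mean of at least 100. The libraries of a group share their treatment, and MI libraries lie apart from the rest, so a high r describes mainly that order of groups. *Notch2* was nearest to *Tnfrsf1b*, a tumor necrosis factor receptor (r = 0.991), and also close to *Itgb2*, an integrin of leukocytes (r = 0.99). *Jag1* was nearest to *Cald1*, an actin-binding protein (r = 0.985), and *Jag2* to *B230104I21Rik* and *Camk2n1* (r = 0.969 for both). *Notch1* was nearest to *Fosl2* (r = 0.945) and *Fos* (r = 0.936), which encode AP-1 subunits. *Notch3* was nearest to *4930404A12Rik* (r = 0.875) and *Mylk*, the myosin light chain kinase of smooth muscle (r = 0.874). *Notch4* was nearest to *Rhbdf2* (r = 0.94), *Dll4* to *Zfyve26* (r = 0.943), *Dll1* to *Tab1* (r = 0.908), *Hey1* to *Nek1* (r = 0.917) and *Hey2* to *Lyrm7* (r = 0.953).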

How the data were processed

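RNA from ventricles of 16 mice was depleted of ribosomal RNA and sequenced as read pairs. The authors used PRINSEQ for trimming, HISAT2 for alignment to mm10, featureCounts for counting and DESeq2 for comparison. Strand and multi-mapping settings are not given in the sources used here, and reads of overlapping or antisense genes could be shared. The deposited signal per gene is reads over the DESeq2 size factor of that library, called normalized count. The table also holds their baseline fold changes and p-values, which were not used.

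The values of each library were whole multiples of a single step, so whole reads were recovered (100% of values within 0.001). limma 3.58.1 in R 4.3.3 was fitted with a trend to log2(value + 1) for 20576 genes with a mean of at least 10. All 16 libraries entered in 6 groups with 1 shared spread, and adjustment was by Benjamini-Hochberg. The fit was tested on simulated data with changes set in PKM2fl/fl MI libraries. There, limma called 46 of 90 genes changed 2-fold (51.1%) and 75 of 89 changed 4-fold, with 5 false calls. Smaller changes were not simulated. Only a small part of the genes was changed there, whereas 50.1% of tested genes were called between PKM2fl/fl MI and sham libraries. The shares recovered therefore do not measure how many true changes that comparison found. On the recovered reads, edgeR 4.0.16 called 10741 genes in PKM2fl/fl and 12058 in PKM2-/- hearts between MI and sham surgery. Other alternatives were DESeq2 1.42.0, total read scaling, a pseudocount of 0.1, no filter, only the groups compared, a replicate block and each library left out.

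Groups came from the sample labels, 0 columns were left without a sample, and labels name libraries of a group as biological replicates. The 10 Notch genes, the pathway list and the marker lists were chosen with earlier results of these data known. By rule, all 10 Notch genes were named with both MI comparisons, the gene with the smallest p in other comparisons, and at most 3 called genes per pathway class and MI comparison, each given for both genotypes. Markers were named after their values were seen. Some genes that these rules would name are not reported here. Gene positions and promoters come from RefSeq on GRCm38.p6, which is the assembly of mm10, and transcript lengths from GENCODE M39. Libraries held 20623769 to 71855101 reads.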

Additional observations from a re-analysis of the deposited data

Results flagged for a closer look

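In 3 cases, every PKM2-/- library lay on opposite sides of the PKM2fl/fl libraries in different treatments. The cases were picked by this lack of overlap, and how many of all genes did the same was not counted. Between genotypes, 34.9% of all genes did not overlap at baseline, 16.5% after sham surgery and 18.9% after MI. A difference of the genotype effect between treatments was then fitted in limma, and none was called. *Notch3* had 1959.96 and 2069.95 normalized counts in PKM2fl/fl and 1793.7 and 1931.5 in PKM2-/- hearts at baseline, and was higher in all PKM2-/- sham libraries. The genotype effect differed by 0.48 on the log2 scale between sham surgery and baseline (SE 0.20, limma adjusted p = 0.718). *Jag2* had 973 and 1099 normalized counts in PKM2fl/fl and 822 and 968 in PKM2-/- hearts at baseline, and was higher in all PKM2-/- sham libraries, a difference of 0.49 (SE 0.34, limma adjusted p = 0.925). *Hey1* had 181 and 167 normalized counts in PKM2fl/fl and 220.3 and 257 in PKM2-/- hearts at baseline, and was lower in all PKM2-/- MI libraries, a difference of -1.10 (SE 0.36, limma adjusted p = 0.358). *Notch1*, whose genotypes overlapped at baseline, had the smallest p of the Notch genes between sham surgery and baseline. Its difference was 0.50 (SE 0.16, limma unadjusted p = 0.00663, adjusted p = 0.583). Over all genes, 5 were called for the difference between MI and baseline and 0 for that between sham surgery and baseline, with 1928 and 1294 at an unadjusted p under 0.05. Groups of 2 or 3 libraries are too small for a test of single libraries that stand apart.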

How the results depend on the processing

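Over all alternatives, 7 single-gene values changed sign. Scaled to total reads, *Notch3* was at -0.12 (log2 fold change) in PKM2fl/fl and 0.0835 in PKM2-/- hearts after MI, *Dll1* and *Snw1* were at 0.18 and 0.15 in PKM2-/- hearts, and the *Notch3* difference between genotypes was 0.20. Without PKM2fl/fl MI replicate 2, *Notch3* was at -0.0936 in PKM2fl/fl hearts, and up to 0.16 without any other single library. Without PKM2-/- sham replicate 3, *Notch1* was at -0.0387 in PKM2-/- hearts, and up to 0.0967 without any other. Total read scaling moved the median of all genes by -0.17 and 0.52 in the MI comparisons of PKM2fl/fl and PKM2-/- hearts, by -0.59, -0.33 and 0.36 between genotypes at baseline, after sham surgery and after MI, and by 0.68 in their difference. Of calls under that scaling, 2386 were higher and 3636 lower in PKM2fl/fl, and 7293 and 1891 in PKM2-/- hearts.

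Total read scaling gave 6022 genes and 1 Notch gene called for MI in PKM2fl/fl and 4 Notch genes in PKM2-/- hearts, 44, 113 and 121 genes between genotypes at baseline, after sham surgery and after MI, 663 genes and 0 Notch genes for sham against baseline, and 54 for the difference. 2 alternatives were chosen after seeing the data. Without the sham libraries highest in *Myl7*, the counts were 6119 genes and 2 Notch genes for MI in PKM2fl/fl hearts, 4, 0 and 25 between genotypes, 779 and 0 Notch genes for sham against baseline, and 4 for the difference. With the ribosomal RNA locus CT010467.1 as a covariate, they were 6014 and 2 for MI in PKM2fl/fl hearts, and 0 between genotypes at baseline and after sham surgery. The locus had 75034 to 161506 normalized counts in PKM2fl/fl and 3.37e+06 to 4.06e+06 in PKM2-/- libraries at baseline. After sham surgery it had 32095 to 489424 and 1.51e+06 to 8.06e+06. The covariate thus separated the genotypes there, and largely separated MI from sham libraries in PKM2fl/fl hearts. These lower counts therefore cannot show whether the calls depend on ribosomal RNA.

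DESeq2 called 11, 266 and 1029 genes between genotypes at baseline, after sham surgery (1 Notch gene) and after MI, and 60 for the difference. edgeR called 1 at baseline and 0 Notch genes for sham against baseline. A pseudocount of 0.1 gave 9 at baseline. Without a filter, 0 genes were called between genotypes after sham surgery and 0 Notch genes for sham against baseline. With only the groups compared, 48, 9 and 6 genes were called between genotypes.

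Same-numbered libraries did not deviate together (median correlation -0.03 over 36 pairs, 1 above 0.1). A replicate block gave 1, 0 and 75 genes between genotypes at baseline, after sham surgery and after MI, and 0 Notch genes for sham against baseline, and with it *Hey2* was not called in PKM2fl/fl hearts.

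With each library left out in turn, Notch genes called for MI ranged from 3 to 7 in PKM2fl/fl and from 7 to 8 in PKM2-/- hearts, from 0 to 1 between genotypes after MI, and from 0 to 1 for sham against baseline. Genes called ranged from 0 to 40, 0 to 90 and 11 to 2279 between genotypes, from 690 to 1513 for sham against baseline, and from 0 to 486 for the difference, highest without PKM2fl/fl MI replicate 3. Where a single library was left in a group, it was assumed to vary like the others. For MI, genes called ranged from 8890 to 10205 in PKM2fl/fl and from 10471 to 11023 in PKM2-/- hearts. The causes of these changes were not tested. With 2 or 3 libraries a group, the precision of *Dll1*, *Hey1* and *Hey2* was limited.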
